A study of Mus musculus with 48 samples.

Results

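The livers of obese mice were compared after 2 days on a diet high in protein relative to carbohydrate (H-P/C-HF) with those of mice kept on the diet low in protein (L-P/C-HF). The comparison holds 45037 of 45101 probe sets (64 array controls were set aside) in 12 L-P/C-HF animals and 11 H-P/C-HF animals, with 1 array per mouse. All were male C57BL/6J mice, obtained at 6 to 7 weeks of age, kept for 2 weeks on chow and fed L-P/C-HF for 10 weeks before the switch, and the mice used were those with the highest glucose area in a tolerance test. L-P/C-HF gave 15% of energy as protein and 30% as carbohydrate, H-P/C-HF gave 30% as protein and 15% as carbohydrate, and both gave 55% as fat, so that more protein cannot be told apart from less carbohydrate. According to the study, H-P/C-HF mice also took in less energy and gained less weight over the same days after the switch. The part of lower energy intake in the differences below was not tested, and it cannot be told apart from diet composition. A further H-P/C-HF mouse, B25, was left out, following the published methods. Its values stand beside the others below. Diet names in the labels differ from these, and the one naming high protein was read as H-P/C-HF.

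The liver is the main site where amino acids beyond the need for protein synthesis are degraded. Aminotransferases and dehydrogenases move the amino group to glutamate and ammonia, the urea cycle disposes of the nitrogen, and the carbon skeletons are oxidised or turned into glucose or fat. Dietary carbohydrate, in contrast, is known to raise enzymes of glycolysis, fructose use and fatty acid synthesis in hepatocytes. The values below are log2 levels as deposited, so a difference of 1 is a doubling, and every p is from limma (two-sided, 1 fit of the 4 groups of diet and duration). A gene is said to rise or fall only where its p, adjusted over all 18193 genes or over all 45037 probe sets, was under 0.05, and the level of a gene is that of its brightest probe set. In whole liver, fewer cells of a type and less RNA per cell cannot be told apart.

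Array medians of the 23 mice lay between 6.73 and 6.85, and the median correlation of an array with the others between 0.978 and 0.991. B25 was the single lowest or highest of the 24 arrays at 2-d for 27.3% of probe sets, and A09, an L-P/C-HF mouse that stayed in the analysis, for 21.2%. A09 was the lowest of the 23 mice in its mean level for 18 of 49 gene lists and the highest for 6, so values without A09 are given where they move a result, an alternative chosen after the data were seen. RNA quality, read as 3' less 5' signal on the array's controls, averaged 0.478 ± 0.187 (SD, n = 12) with L-P/C-HF, against 0.477 ± 0.125 (SD, n = 11) with H-P/C-HF. Hepatocyte markers were bright in both groups, with a mean level over 13 genes of 13.35 to 13.57 and 13.47 to 13.60.

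After 2-d, 8 of 18193 genes changed (0.0440%), of which 7 rose and 1 fell, and most of those that rose carry or degrade amino acids. Counted by probe set, 6 of 45037 changed (0.0133%), 4 upward and 2 downward, and 58 (0.129%) had an unadjusted p below 0.001, with 37 higher and 21 lower, on 43 genes with a symbol of their own. The differences were small. Their absolute size had a median of 0.0474 and a 99th percentile of 0.266, and 61 probe sets differed by more than 0.5 and 3 by more than 1. The median standard error was 0.0766. Of all genes, 379 (2.08%) lay higher and 295 (1.62%) lay lower with unadjusted p below 0.05, together 3.70%. At any p, 9680 of 18193 genes (53.2%) lay higher and 8512 lower, the baseline for the 2-d counts of list members below. The groups did not overlap at all for 2 probe sets (0.00444%), those of Csad and Dnase2a, both lower in H-P/C-HF animals.

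Carriers that bring amino acids into the cell were led by Slc7a2, the transporter of arginine, lysine and ornithine. Its brightest probe set lay at 10.96 to 12.59 (median 12.29) in L-P/C-HF animals and 12.45 to 13.07 (median 12.77) in H-P/C-HF animals. All 11 H-P/C-HF animals exceeded the L-P/C-HF median and 8 were above every L-P/C-HF mouse, while B25, at 11.79, lay among the lower L-P/C-HF values. The difference was 0.58 (standard error 0.11, adjusted p = 0.019), or 1.49-fold, and with B25 included 0.50 (adjusted p = 0.132). A dimmer probe set of Slc7a2 had the smallest p of all probe sets. It lay at 9.45 to 10.45 (median 10.00) in L-P/C-HF animals and 10.26 to 10.99 (median 10.62) in H-P/C-HF animals, with B25 at 10.38, and rose by 0.58 (adjusted p = 0.0029 over probe sets). That rise held with B25 (0.56, adjusted p = 0.0045) and without A09 (0.53, adjusted p = 0.0034), so the effect of B25 on Slc7a2 differed between probe sets. All 4 probe sets of the gene lay higher, by 0.46 to 0.65. Slc38a4, a sodium-coupled carrier of neutral and cationic amino acids in liver, rose by 0.26 (standard error 0.05, adjusted p = 0.037). It was at 12.62 to 13.36 (median 13.10) in L-P/C-HF animals and 13.16 to 13.44 (median 13.34) in H-P/C-HF animals, with all 11 over the L-P/C-HF median. Its second probe set differed by 0.10 (p = 0.218). The call on Slc38a4 did not hold with B25 (adjusted p = 0.111) or without A09 (adjusted p = 0.077).

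The list of carriers as a whole, Slc7a2 and Slc38a4 included, had differences of both signs. Of 18 measured amino acid transporters 10 lay higher and 8 lower, and those at an unadjusted p under 0.05 were 4 higher and 2 lower. Slc43a1, a carrier of large neutral amino acids, differed by 0.43 (p = 0.0029), and Slc38a3, a glutamine carrier, by 0.12 (p = 0.023). Slc6a13, which takes up GABA and taurine, was at -0.26 (p = 0.0034) and Slc1a4, a carrier of alanine, serine and cysteine, at -0.18 (p = 0.0092).

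**Figure D1:**
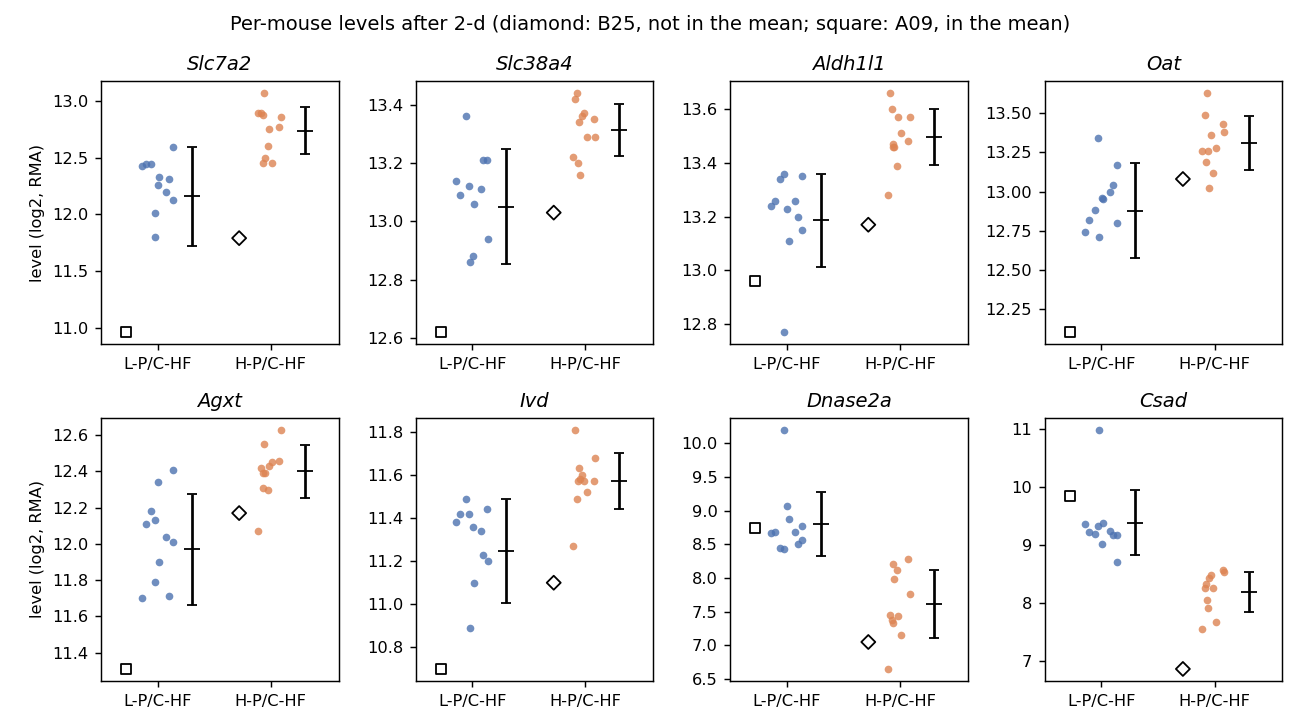
Level of 8 genes in each mouse after 2-d, on the log2 scale as deposited, by diet (filled circles), with the mean and SD of each group (n = 12 for L-P/C-HF, n = 11 for H-P/C-HF) as black bars. The open diamond is B25, which is not in the mean, and the open square is A09, which is. The 6 genes from Slc7a2 to Ivd sit higher in H-P/C-HF animals with A09 at the low end of the L-P/C-HF animals or near it, and the groups do not overlap for Dnase2a and Csad.

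Enzymes that degrade amino acids lay higher as a group. The 4 lists of breakdown pathways together held 64 measured genes, of which 52 lay higher and 12 lower, with a median difference of 0.13 against 0.00591 over all genes. Of the 64, 3 rose, and with unadjusted p below 0.05 there were 28 higher and 0 lower, against 2.08% and 1.62% of all genes. Their mean level per mouse was 10.88 to 11.44 in L-P/C-HF animals and 11.11 to 11.53 in H-P/C-HF animals, so the groups overlapped, with 10 of 11 H-P/C-HF animals over the L-P/C-HF median and B25 at 10.98. With B25 included the median was 0.0925, with 22 higher and 1 lower at p under 0.05, and without A09 it was 0.10, with 25 higher and 0 lower. The lists were chosen with earlier results of these data known, so the contrast with all genes is a description and no test.

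Among the genes of ornithine and proline, all 4 had a positive difference at an unadjusted p under 0.05. Oat, which converts ornithine on the way to glutamate, rose by 0.44 (standard error 0.09, adjusted p = 0.037). It lay at 12.10 to 13.34 (median 12.92) in L-P/C-HF animals and 13.02 to 13.63 (median 13.28) in H-P/C-HF animals, and all 11 exceeded the L-P/C-HF median. Without A09, the lowest of all mice at 12.10, the adjusted p was 0.077. Prodh and Prodh2, which begin the oxidation of proline and hydroxyproline, were at 0.30 (p = 0.0063) and 0.19 (p = 0.022), and Aldh4a1, which completes it, at 0.23 (p = 0.02).

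Of 6 aminotransferases in the group 5 lay higher, 4 of them at an unadjusted p under 0.05. Agxt, which transfers the amino group of alanine to glyoxylate, rose by 0.43 (standard error 0.09, adjusted p = 0.045), from 11.31 to 12.41 in L-P/C-HF animals to 12.07 to 12.63 in H-P/C-HF animals. That call was lost with B25 (adjusted p = 0.067) and without A09 (adjusted p = 0.095). Got1, the cytosolic aspartate aminotransferase, differed by 0.61 (95% interval 0.31 to 0.90, p = 0.00015) and Gpt, the alanine aminotransferase, by 0.34 (95% interval 0.16 to 0.51, p = 0.00031), neither past the adjusted threshold (adjusted p = 0.195 and 0.233). Etnppl, a phospho-lyase of phosphoethanolamine that stands in the same list and is counted in the 64 genes without being an enzyme of amino acid breakdown, was at 0.83 (p = 0.00081, adjusted p = 0.416), and both of its probe sets lay higher. Without A09, the lowest of all mice for Etnppl at 8.01, it was at 0.63. Gnmt, which uses up methyl groups on glycine, was at 0.25 (p = 0.00081). In contrast, the mitochondrial Got2 was at -0.0013 and Glud1, the glutamate dehydrogenase, at -0.10 (p = 0.054).

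In the breakdown of branched-chain amino acids and lysine, 21 of 25 genes lay higher and 9 did so at an unadjusted p under 0.05. Ivd, the isovaleryl-CoA dehydrogenase of leucine breakdown, rose by 0.32 (standard error 0.07, adjusted p = 0.037). It was at 10.70 to 11.49 (median 11.35) in L-P/C-HF animals and 11.27 to 11.81 (median 11.57) in H-P/C-HF animals, and 9 of 11 lay above every L-P/C-HF mouse. Its second probe set differed by 0.43. B25 was at 11.10 and the adjusted p with it was 0.161, and 0.08 without A09. The 5 genes of lysine breakdown all lay higher, among them Aass, its first enzyme, by 0.25 (p = 0.00063) and Aldh7a1 by 0.20 (p = 0.0061). Of the branched-chain keto acid dehydrogenase, Dbt differed by 0.31 (p = 0.0019) while Bckdha was at 0.09 and Bckdk, the kinase that inhibits it, at -0.01.

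Of the genes for aromatic amino acids and histidine, 13 of 14 lay higher, 6 of them at an unadjusted p under 0.05, and none passed over all genes. Hpd and Hgd, successive enzymes of tyrosine breakdown, differed by 0.16 (p = 0.00027) and 0.24 (p = 0.00042), and 10 of 11 H-P/C-HF animals were above every L-P/C-HF mouse for Hpd. A dimmer probe set of Hgd was at -0.0042 (p = 0.967). Without A09 Hpd was at 0.12 and the brightest probe set of Hgd at 0.18. Tat, the rate-limiting aminotransferase of tyrosine, was at 0.34 (p = 0.0086). Afmid, an enzyme of tryptophan breakdown, was at 0.43 (p = 0.0044), but Tdo2, which opens that pathway, was at 0.05. Hal, the first enzyme for histidine, was at 0.29 (p = 0.016).

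The 6 measured enzymes of the urea cycle all lay higher, 3 of them at an unadjusted p under 0.05. Ass1, argininosuccinate synthase, was read by a probe set that the annotation also assigns to Gm5424, so both cannot be separated, and this probe set rose by 0.38 (standard error 0.07, adjusted p = 0.027 over probe sets). Its level was 12.61 to 13.85 (median 13.71) in L-P/C-HF animals and 13.83 to 14.10 (median 13.98) in H-P/C-HF animals, and 10 of 11 H-P/C-HF animals were above every L-P/C-HF mouse. The probe set that names Ass1 alone is dimmer and differed by 0.20 (p = 0.269). Cps1, which fixes ammonia, differed by 0.23 (p = 0.0012), Asl, which releases arginine, by 0.33 (p = 0.0013), and Arg1, which splits it to urea, by 0.10 (p = 0.013). The 11 genes of ammonia handling had a median of 0.10, and of 0.0554 without A09.

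**Figure D2:**
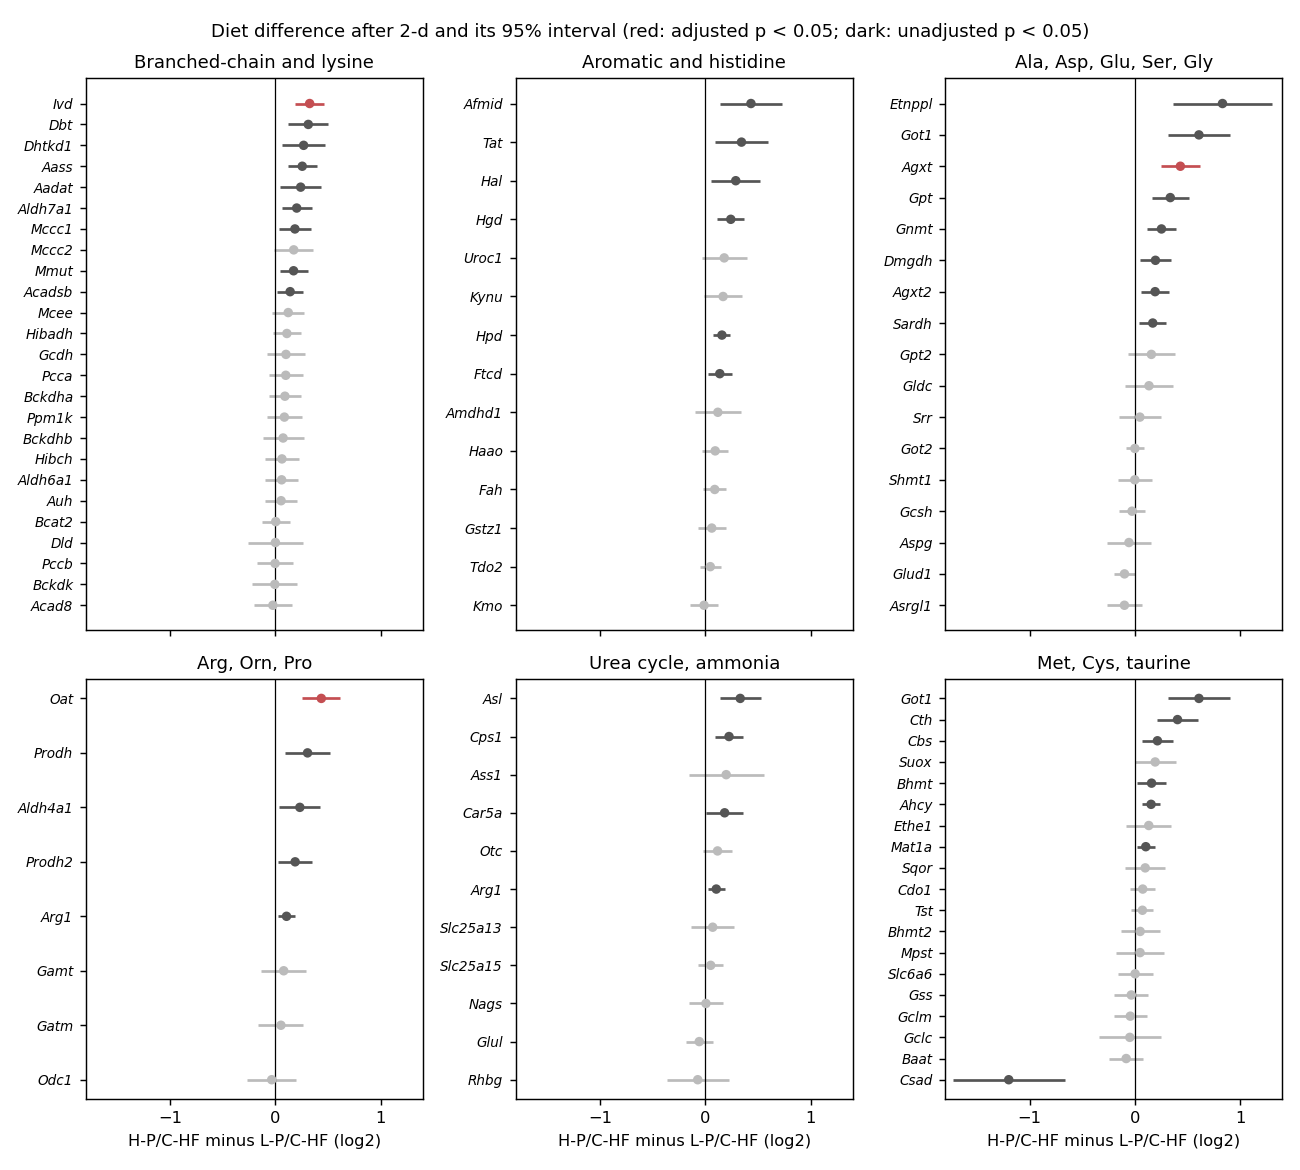
Difference between diets after 2-d, H-P/C-HF less L-P/C-HF on the log2 scale, with its 95% interval from limma, for every measured gene of 6 lists of nitrogen metabolism. Ivd, Agxt and Oat (red) passed over all genes, dark points had an unadjusted p under 0.05, and of all the dark points Csad alone lies below 0.

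Genes of sulfur amino acids had differences of both signs. Cth and Cbs, the 2 enzymes that turn homocysteine into cysteine, were at 0.40 (p = 0.00016) and 0.21 (p = 0.0048), and Ahcy, upstream of them, at 0.15 (p = 0.001). Csad, which decarboxylates cysteine sulfinate toward taurine, had the largest negative difference of all probe sets, -1.20 (standard error 0.27, p = 3.9e-05, adjusted p = 0.07). It lay at 8.72 to 10.99 (median 9.24) in L-P/C-HF animals and 7.56 to 8.57 (median 8.27) in H-P/C-HF animals, and the groups did not overlap. B25 was lower still, at 6.87, and with it the difference was -1.31 (adjusted p = 0.049). Of the L-P/C-HF animals A06 was the highest for Csad, at 10.99, and the next, A09, was at 9.85. Cdo1, which supplies the substrate of Csad, was at 0.07 (p = 0.22), and the 3 measured genes of glutathione synthesis were between -0.0493 and -0.0355.

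Aldh1l1, which oxidises formyl-tetrahydrofolate, had the smallest p of all genes. It rose by 0.31 (standard error 0.06, adjusted p = 0.019), at 12.77 to 13.36 (median 13.24) in L-P/C-HF animals and 13.28 to 13.66 (median 13.48) in H-P/C-HF animals, and 10 of 11 H-P/C-HF animals were above every L-P/C-HF mouse. B25, at 13.17, was below the L-P/C-HF median, and the adjusted p with it was 0.049. The 12 genes of one-carbon metabolism, Aldh1l1 among them, had a median of 0.0471. Targets of ATF4, the factor that is active when amino acids are scarce, were mixed, with 12 of 19 lower and a median of -0.0573. Atf5 was at -0.27 (p = 0.022) and Trib3 at 0.32 (p = 0.002), whereas Asns, a widely used target, was at -0.13 (p = 0.267). At an unadjusted p under 0.05, 2 of the 19 were higher and 3 lower. Without A09 2 were higher and 1 lower at that p.

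Enzymes of carbohydrate use lay lower. Of 17 measured genes 13 were lower, 7 of them at an unadjusted p under 0.05 and 0 higher at that p, and the median was -0.16. No gene passed over all genes in limma. The 4 genes of fructose and glycerol phosphate were all lower at p under 0.05. Gpd1, the cytosolic glycerol-3-phosphate dehydrogenase, lay at 10.71 to 11.24 (median 10.96) in L-P/C-HF animals and 10.36 to 10.82 (median 10.57) in H-P/C-HF animals, and 10 of 11 H-P/C-HF animals were below every L-P/C-HF mouse. Its difference was -0.41 (standard error 0.10, p = 6.9e-05, adjusted p = 0.104), and B25 was the lowest, at 9.95. Khk and Tkfc, which phosphorylate fructose and glyceraldehyde, were at -0.23 (p = 0.0033) and -0.33 (p = 0.0047), and Gpd2, the mitochondrial partner of Gpd1, at -0.36 (p = 0.012). Tkt and Pgd of the pentose phosphate pathway were at -0.25 and -0.24 (p = 0.037 and 0.042). The regulator Mlxipl was at -0.11 (p = 0.225) and its target Pklr at -0.20 (p = 0.173). All 11 H-P/C-HF animals were below the L-P/C-HF median of the mean over the list, and B25 lay below them all, at 10.58, although A09 was the lowest L-P/C-HF mouse. Without A09 the median was -0.23 and 8 genes were lower at p under 0.05.

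Fatty acid synthesis showed a like direction in its first steps. Of 10 genes of synthesis 8 lay lower, 4 of them at an unadjusted p under 0.05, while genes of esterification had a median of 0.0183. Fasn, the fatty acid synthase, was at -0.54 (p = 0.0035), Me1, the malic enzyme that supplies NADPH, at -0.51 (p = 0.0029), Acly, which makes cytosolic acetyl-CoA, at -0.33 (p = 0.02) and Acaca, which makes malonyl-CoA, at -0.26 (p = 0.044). Srebf1, which encodes a main activator of these genes, was at 0.08 (p = 0.497). A09 had by far the lowest mean level of the list, 10.01, against 10.68 to 11.17 in the other L-P/C-HF animals, and without it 6 of the 25 genes were lower at p under 0.05 and Fasn was at -0.63 (p = 0.00051).

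Plin2, a protein that coats lipid droplets, was lower in every H-P/C-HF mouse than the L-P/C-HF median. It lay at 12.77 to 13.39 (median 13.19) in L-P/C-HF animals and 12.46 to 13.04 (median 12.83) in H-P/C-HF animals, a difference of -0.33 (standard error 0.07, p = 4.6e-05, adjusted p = 0.076). The list of 18 droplet and uptake genes had a median of -0.0164, with 10 of 18 lower. Mttp, which loads triglyceride onto apolipoprotein B, was at -0.22 (p = 0.00099) and Apoa5 at -0.14 (p = 0.0066), whereas Apob was at -0.04 and Apoa1 at 0.01. Of 30 genes of PPARA and fatty acid oxidation, 23 lay lower (median -0.048), 2 of them at p under 0.05, and without A09 25 did (median -0.085), 5 of them at that p. Cpt1a, the entry enzyme of mitochondrial oxidation, was at -0.04 (p = 0.628). Gluconeogenesis and glycogen had 8 of 14 genes higher, 0 of 14 at p under 0.05 in limma, with Pck1 at 0.12 (95% interval -0.10 to 0.33) and G6pc at -0.24 (95% interval -0.56 to 0.07). With A09 left out that list had 7 of 14 higher and a median of -0.0164 in place of 0.0325, and 2 of 14 were lower at p under 0.05.

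Chaperones and other genes of protein folding in the endoplasmic reticulum lay lower. Of 32 measured genes 29 were lower, 7 of them at an unadjusted p under 0.05 and 0 higher at that p, with a median of -0.13, and no gene passed over all genes. All 11 of the chaperones proper were lower. Many such genes are switched on together through the ER stress element, a promoter motif that unfolded proteins activate. The motif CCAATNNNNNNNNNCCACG was searched on both strands in the RefSeq promoters of GRCm38.p6, which run from 250 bases before to 50 bases after the start. It was found in the promoters of 10 of the 28 listed genes that have one in the table (35.7%) and of 37 of all 27025 genes there (0.137%). The list was drawn up of genes of protein folding, so its larger share of matches describes that choice and not the diet. The 10 listed genes that hold the motif all lay lower, with a median of -0.217. Of the 18 without a match 16 lay lower, with a median of -0.115. Outside the list 10 measured genes hold the motif, and 5 of them lay lower (median 0.0144). These medians include A09, the mouse with the highest mean over the list, and were not taken without that mouse. A match is a description of these letters and not a site in use.

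The stretches are shown for the 4 genes with a match and a p under 0.05 and for Hspa5, the best known gene of the list, 5′ to 3′ on the strand of the gene, which is + for all of them, with the element in capitals. In Ero1b, Derl3 and Creld2 it reads in the opposite direction. They lie at chr13:12565662-12565720 (Ero1b), chr14:118937807-118937865 (Dnajc3), chr10:75893222-75893280 (Derl3), chr15:88819500-88819558 (Creld2) and chr2:34772005-34772063 (Hspa5).
Ero1b: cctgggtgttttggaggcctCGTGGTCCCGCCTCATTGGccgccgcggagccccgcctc
Dnajc3: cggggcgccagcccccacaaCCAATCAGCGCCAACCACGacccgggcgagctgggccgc
Derl3: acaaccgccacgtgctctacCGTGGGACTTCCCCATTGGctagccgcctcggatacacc
Creld2: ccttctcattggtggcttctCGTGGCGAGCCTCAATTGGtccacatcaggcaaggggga
Hspa5: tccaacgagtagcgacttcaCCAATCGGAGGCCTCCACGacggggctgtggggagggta

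Ero1b, an oxidase that forms disulfide bonds, had the smallest p of the list. It lay at 10.28 to 11.32 (median 10.63) in L-P/C-HF animals and 9.90 to 10.82 (median 10.26) in H-P/C-HF animals, a difference of -0.39 (standard error 0.10, p = 0.00033, adjusted p = 0.233), a second probe set differed by -0.38 and its dimmest by -0.03. Creld2 was at -0.48 (p = 0.048), Derl3, a part of the degradation machinery, at -0.43 (p = 0.023) and Dnajc3, which dampens the stress response, at -0.26 (p = 0.018). Nucb2, a calcium-binding protein, was at -0.59 (p = 0.0035). Hspa5, the main chaperone of the compartment, was at -0.23 (p = 0.082). Most of these differences were smaller without A09, whose mean over the list, 11.54, was above every other mouse, against 10.39 to 10.85 in the other L-P/C-HF animals and 10.30 to 10.81 in H-P/C-HF animals. Without A09 the median was -0.0736, 27 of 32 were lower and 3 were so at p under 0.05. Nucb2 was then at -0.37 (p = 0.0051), Creld2 at -0.31 (p = 0.155), Ero1b at -0.34 (p = 0.0011) and Hspa5 at -0.12 (p = 0.274).

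The heat shock proteins of cytosol and mitochondria did not share this direction, with 12 of 22 lower and a median of -0.00655. Hspa1b, the inducible Hsp70, was the exception. It lay at 8.50 to 9.78 (median 9.18) in L-P/C-HF animals and 7.70 to 9.25 (median 8.75) in H-P/C-HF animals and its 3 probe sets differed by -0.66 to -0.60, with p = 0.0005 and adjusted p = 0.313 on the brightest. Hspa1a, its near-identical copy, was at -0.0036 on a probe set at 4.28, near the bottom of the scale, and the copies may share signal. Id3, an inhibitor of transcription that responds to BMP signals, was at -0.61 (p = 0.0027), and the 5 BMP-responsive genes of its group all lay lower.

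The direction of acute phase proteins turned without A09. With it, 22 of 30 lay lower (median -0.0659), and Saa3 was at -0.75 (p = 0.029), and without it 14 lay lower (median 0.0118). A09 stood at a mean of 13.08, against 10.60 to 12.22 in the other L-P/C-HF animals and 10.94 to 12.13 in H-P/C-HF animals. Saa1, encoding the main serum amyloid, ranged from 9.98 to 13.84 in L-P/C-HF animals and from 10.71 to 13.35 in H-P/C-HF animals, a wide overlap. The same mouse had the lowest mean level of carbohydrate enzymes, fatty acid synthesis and CAR and PXR targets among the L-P/C-HF animals.

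**Figure D3:**
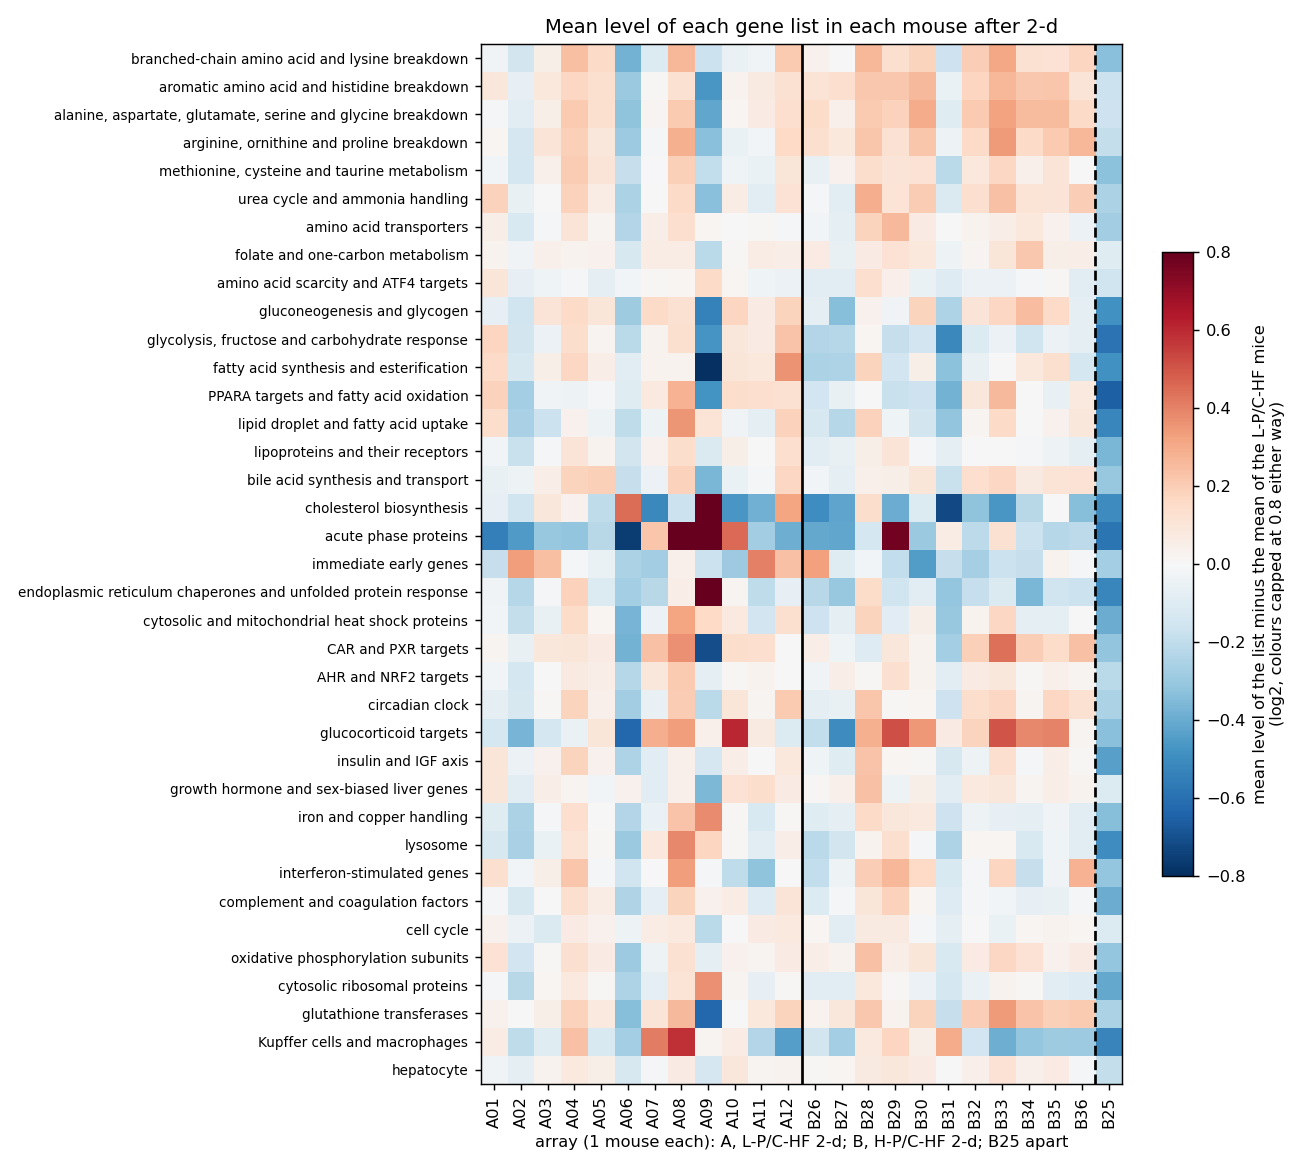
Mean level of each gene list in each mouse after 2-d, minus the mean of the 12 L-P/C-HF animals (log2, colour, capped at 0.8). Each column is 1 mouse, L-P/C-HF left of the solid line, H-P/C-HF right of it and B25 at the far right. The upper rows of amino acid breakdown are red in nearly all H-P/C-HF animals, A09 stands apart in acute phase proteins and fatty acid synthesis, and B25 is blue in nearly every row.

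Dnase2a, the acid DNase of lysosomes, was the 1 gene that fell. It lay at 8.43 to 10.20 (median 8.68) in L-P/C-HF animals and 6.65 to 8.28 (median 7.45) in H-P/C-HF animals, so that every H-P/C-HF mouse was below every L-P/C-HF mouse, and B25 was at 7.05. The difference was -1.19 (standard error 0.23, adjusted p = 0.019), or 2.28-fold lower, and with B25 it was -1.23 (adjusted p = 0.017). Of the L-P/C-HF animals A06 was the highest, at 10.20, and the next, A01, was at 9.07. The gene has 1 probe set here, of the type that may cross-hybridise, and with A01, A09 and A24 all left out its adjusted p was 0.07. It passed in 9 of 14 alternative fits, and the highest adjusted p, 0.114, was with array weights. The lysosome list as a whole did not follow Dnase2a, with 16 of 27 lower and a median of -0.0158 (-0.00455 without A09).

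Paqr9, a membrane receptor of the progestin and adipoQ family, lay lower on each of its probe sets. The probe set that the annotation assigns to Paqr9 and a neighbouring transcript fell by 0.57 on the log2 scale (adjusted p = 0.022 over probe sets), at 10.13 to 10.91 (median 10.51) in L-P/C-HF animals and 9.58 to 10.40 (median 10.13) in H-P/C-HF animals. The 2 that name Paqr9 alone were at -0.60 (adjusted p = 0.064) and -0.56 (adjusted p = 0.345), and for all 3 every H-P/C-HF mouse was below the L-P/C-HF median. Slc30a10, a manganese exporter, lay lower on both of its probe sets, at -0.51 and -0.45, again in all 11 mice. Dynll1, a dynein light chain, was at -0.61 (p = 0.00052), and at -0.45 without A09, whose level of 11.53 was the highest. Also lower at p under 0.001 were St6gal1, which adds sialic acid to glycoproteins (-0.35), Inhba, the activin A subunit (-0.30), Col27a1, a fibrillar collagen (-0.41 on its second probe set), and Cyp2d40 (-0.32).

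Gm11772, a predicted gene, rose by 0.32 (standard error 0.07, adjusted p = 0.037). It lay at 6.94 to 7.55 (median 7.09) in L-P/C-HF animals and 7.24 to 7.78 (median 7.43) in H-P/C-HF animals, and without A09 its adjusted p was 0.093. Dcxr, an L-xylulose reductase, was higher in all 11 mice than the L-P/C-HF median, by 0.47 (p = 2.7e-05, adjusted p = 0.055). Others that lay higher at p under 0.001 were Sult1a1, a sulfotransferase (0.32), Gabarapl1, a protein of autophagosomes (0.32), Pdk2, a kinase that inhibits pyruvate dehydrogenase (0.30), Tk1, the thymidine kinase (0.46), and Ank3, an ankyrin (0.41). Clec2h, a C-type lectin, had the largest positive difference of any probe set, 1.004 (p = 0.0091, adjusted p = 0.9998), and 0.77 without A09. Upp2, a uridine phosphorylase, was higher on all 3 probe sets, by 0.51 to 0.73, and by 0.31 on the brightest without A09. Probe sets at the bottom of the scale also reached p under 0.001, those of Glis3, Hapln1, Paip1, Ugt8a and Vcan, with L-P/C-HF medians between 3.87 and 5.42. The brightest probe sets of Paip1, Ugt8a and Vcan were at -0.01, -0.0011 and -0.02.

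Glutathione transferases, which conjugate glutathione to reactive compounds, were higher in 15 of 22, and 7 were so at an unadjusted p under 0.05 with 0 lower. Gstt2 was at 0.42 (p = 0.00045), Gstk1 at 0.27 (p = 0.0015) and Gstm7 at 0.30 (p = 0.0022). Family members share sequence, and the median was 0.0398, or 0.00318 with 4 genes at that p without A09. Targets of CAR and PXR, the xenobiotic receptors, were higher in 21 of 32, but in 16 of 32 without A09, and their P450 genes included none at p under 0.05, with Cyp2b10 at 0.11 and Cyp3a11 at -0.01. Bile acid genes had 15 of 22 higher with a median of 0.0295, of which Cyp7a1, the rate-limiting enzyme, alone had p under 0.05. Without A09 13 of 22 were higher (median 0.00455) and 1 was lower at that p, and without A01, A09 and A24 10 of 22 were higher (median -0.0129). Cholesterol synthesis had 15 of 17 lower.

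Other lists held a few genes with small p. In the clock list 13 of 17 lay higher, with Nfil3, a repressor of clock output, at -0.39 (p = 0.015) and Dbp, an output factor, at 0.30 (p = 0.049), while the core genes Arntl and Nr1d1 were at 0.08 and -0.02. At an unadjusted p under 0.05 the clock list had 2 genes higher and 1 lower. Without A09 12 of 17 lay higher, with 1 higher and 0 lower at that p. Targets of the glucocorticoid receptor were higher in 11 of 13 (median 0.10), of which Tat alone had p under 0.05, and Fkbp5 was at 0.22 (p = 0.336). Igf1, the growth factor that liver secretes, was at 0.17 (p = 0.00075) on its brightest probe set, and its 3 others were at 0.14, -0.05 and -0.08, so they did not share a direction. Interferon-stimulated genes had a median of 0.0108 (0.0218 without A09), and Ifit1, Ifit3 and Rsad2, antiviral proteins, were at 0.38, 0.28 and 0.25 (p = 0.016, 0.018 and 0.011). Medians of the lists for the insulin and IGF axis, growth hormone and sex bias, iron and copper, AHR and NRF2, the cell cycle, complement and coagulation, collagens, proteasome and mitochondrial carriers lay between -0.0377 and 0.0208, and between -0.0582 and 0.0114 without A09.

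Subunits of oxidative phosphorylation lay higher by a small amount in nearly all cases, 71 of 78, with a median of 0.0757. Of the 78, 11 were higher at an unadjusted p under 0.05 and 0 lower, among them Uqcrc1 of complex III at 0.18 (p = 0.0033) and Sdhb of complex II at 0.21 (p = 0.0037). Their mean level was 11.11 to 11.53 in L-P/C-HF animals and 11.28 to 11.64 in H-P/C-HF animals, with 9 of 11 over the L-P/C-HF median. The count was 72 of 78 without A09, and 61 of 78 with B25, when 3 were higher at that p. Cytosolic ribosomal proteins lay on the other side of 0, 39 of 46 lower with a median of -0.0496, but of -0.015 without A09.

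**Figure D4:**
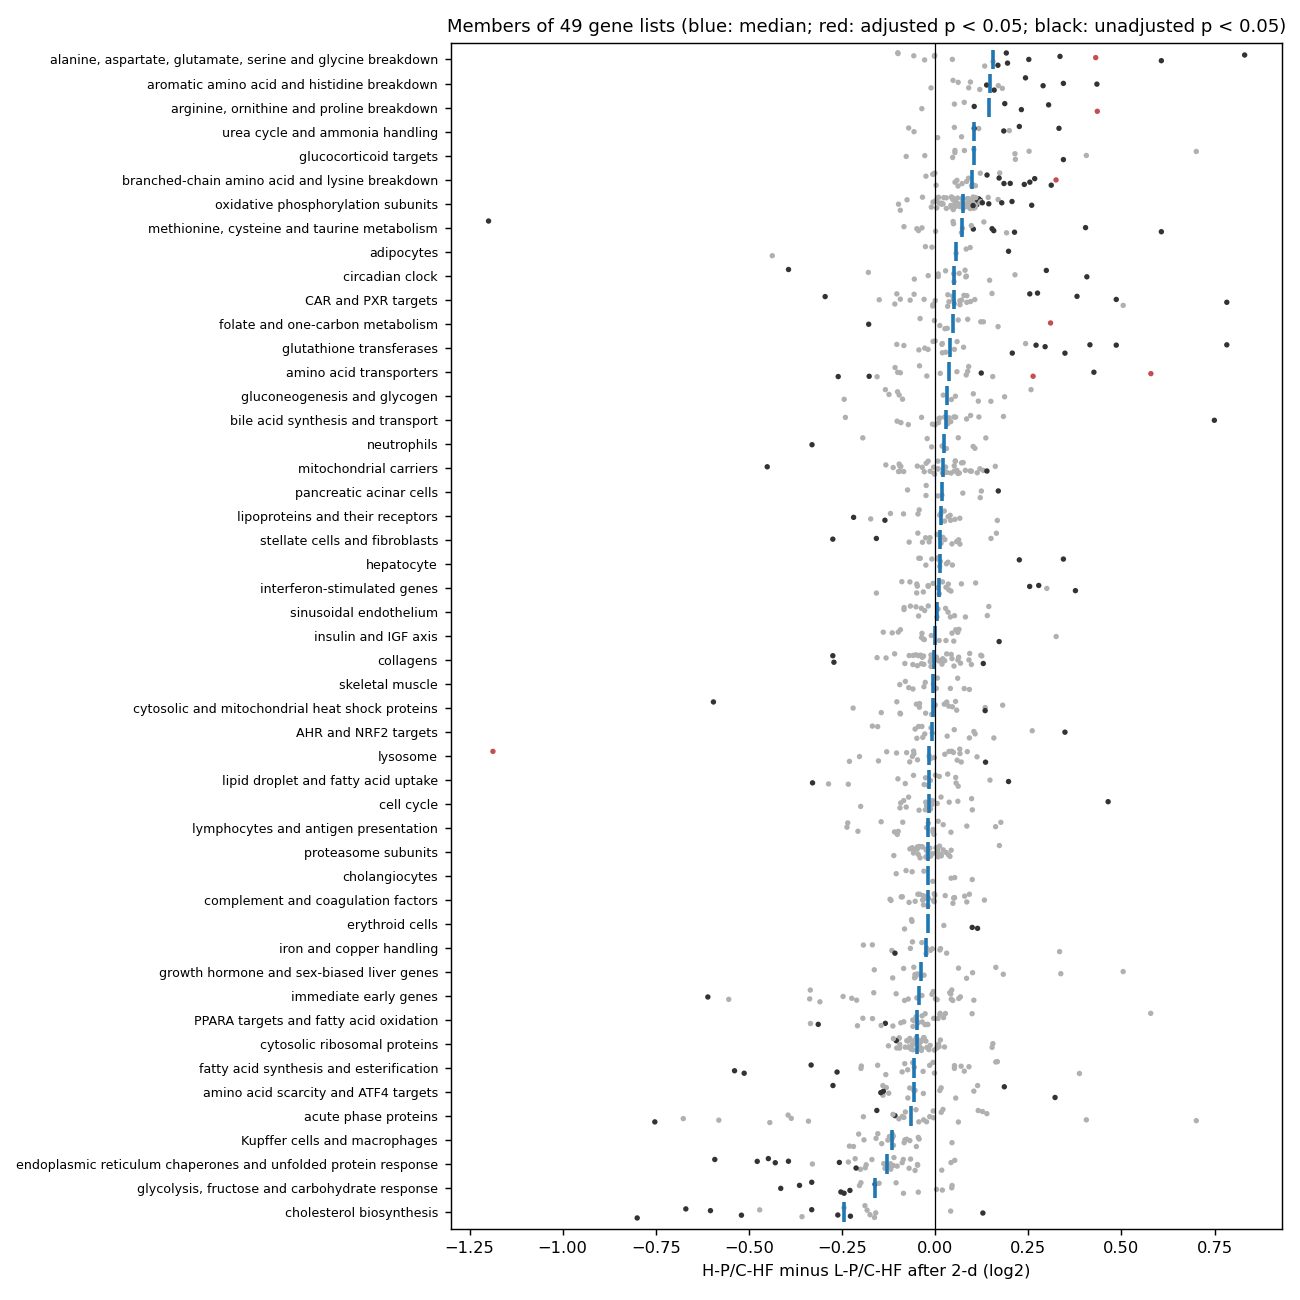
Difference between diets after 2-d (log2, H-P/C-HF less L-P/C-HF) for each measured member of 49 gene lists, with the list's median as a blue line, ordered by median. Members at an unadjusted p under 0.05 are black and those that passed over all genes red. The 4 highest medians are those of 3 lists of amino acid breakdown and of the urea cycle, followed by glucocorticoid targets, and those of cholesterol synthesis, carbohydrate use and endoplasmic reticulum chaperones lie at the bottom.

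Markers of other cell types were examined beside these groups. Those of Kupffer cells and macrophages lay lower in 20 of 21 (median -0.11), among them Csf1r at -0.21 (p = 0.105), C1qa at -0.16 and Adgre1 at -0.11, and none had p under 0.05. Their mean level was 7.84 to 8.86 in L-P/C-HF animals and 7.89 to 8.58 in H-P/C-HF animals, and the part of these cells in the other results was not tested. At 4-wk, in other mice, the same markers were lower in 20 of 21, with a median of -0.30. Of all 18193 genes, 10865 lay lower at 4-wk, with a median of -0.0158. Medians for hepatocytes, sinusoidal endothelium, stellate cells, lymphocytes, neutrophils, cholangiocytes, pancreatic acinar cells, skeletal muscle and erythroid cells were between -0.0196 and 0.0242. Without A09 these medians were between -0.0482 and 0.00273. Adipocyte markers had a median of 0.0561 over 7 genes, and of -0.0155 without A09, the mouse in which Fabp4 reached 10.56 against a group median of 6.52.

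Probe sets of the same gene served as a check within the arrays. Among 9010 genes with more than 1, the brightest and the next differed in the same direction in 61.3%. Where both were above a mean level of 6.79, the middle of all probe sets, the share was 66.4% of 4624 genes, and where the second was at or below it 55.9% of 4386. Among genes whose brightest probe set had an unadjusted p under 0.05 it was 82.2% of 315, and 89.7% of 203 with both above that level against 68.8% of 112 otherwise. Of 74 genes with p under 0.01 on the brightest, 12 had a second in the opposite direction, Inhba (-0.30 and 0.19), Igf1 and Hgd among them. When all probe sets of a gene were averaged, Slc7a2 was at 0.57, Ivd at 0.38, Aldh1l1 at 0.28 and Slc38a4 at 0.18, against 0.58, 0.32, 0.31 and 0.26 on the brightest. None of the 8 genes passed in that fit, which says nothing of agreement for Agxt, Dnase2a, Gm11772 and Oat, since those 4 have 1 probe set and kept their differences.

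**Figure D5:**
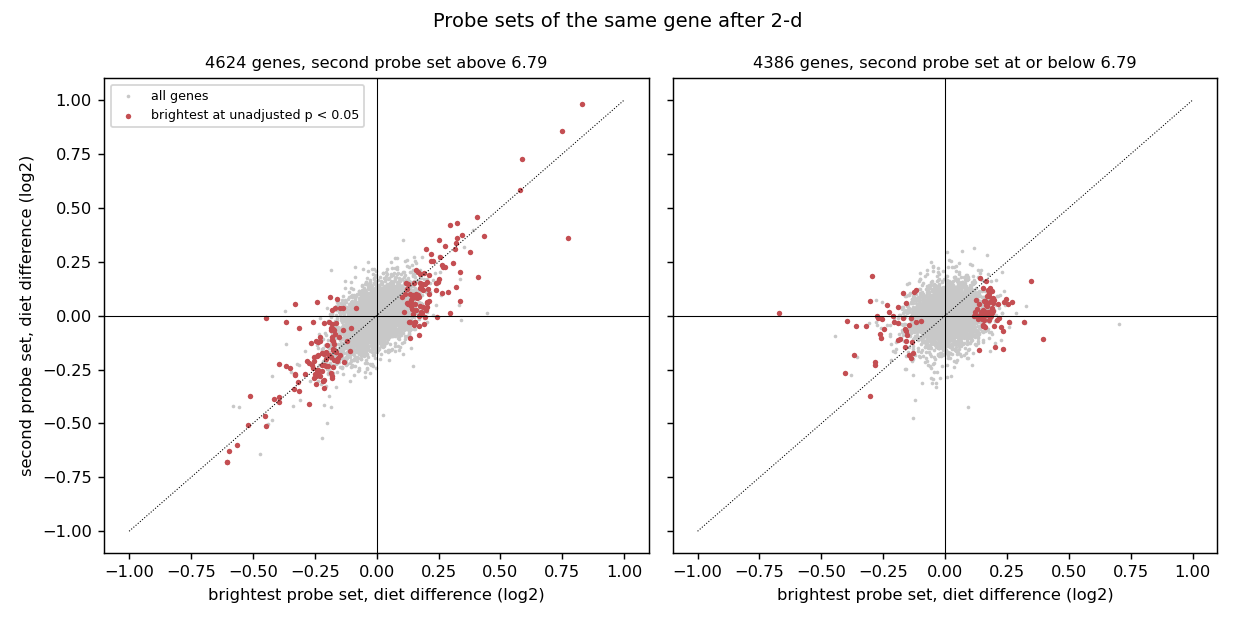
Difference between diets after 2-d (log2) on the brightest probe set of a gene (x) and on the next brightest (y), 1 point a gene, split by whether the second probe set is above a mean level of 6.79. Genes whose brightest probe set had an unadjusted p under 0.05 are red, and they lie along the dotted line of equal differences on the left and around 0 on the y axis on the right.

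B25 was lower than every other 2-d mouse in the mean level of 22 of 49 lists and higher in 0. Including it moved the difference of a probe set by 0.0202 in the median and by 0.271 at most. With B25, 5 probe sets changed, 2 upward and 3 downward, 4 of them among the 6 named above (the brightest probe set of Slc7a2 and that of Aldh1l1 were lost), and 7 genes changed, 3 upward and 4 downward, with 4 shared. At an unadjusted p under 0.001 the split turned from 37 higher and 21 lower to 28 higher and 36 lower, with 43 probe sets in both. The 4 genes called with and without B25 were Aldh1l1, Dnase2a, Gm11772 and Oat. The directions of the main groups did not turn, with medians of 0.0925 for amino acid breakdown, -0.19 for carbohydrate use and -0.15 for endoplasmic reticulum genes.

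The same diets were compared after 4-wk in other mice, 12 in each group. No gene changed there in limma (552 of 18193 at an unadjusted p under 0.05), and the difference between the diet effects at 4-wk and 2-d passed for 0 of 18193 genes, with the lowest adjusted p at 0.9999 and 277 genes (1.52%) at an unadjusted p under 0.05. Of all genes, 7294 of 18193 lay higher at 4-wk and 10865 lower (median -0.0158), the baseline for the 4-wk counts. The amino acid group had a median of 0.0258 at 4-wk. Agxt was at 0.32 (p = 0.00086), Oat at 0.29 (p = 0.0017) and Dnase2a at -0.12 (p = 0.596). Slc7a2 was at 0.19 (p = 0.081) on its brightest probe set. Its dimmer probe set with the smallest p at 2-d was at 0.32 (p = 0.00081) at 4-wk. The unadjusted p of the difference between durations was 0.0014 for Dnase2a, 0.012 for Csad and 0.0053 for Gpt, none of which passed after adjustment, so none was shown to differ. Cholesterol synthesis took the opposite direction, from 15 of 17 genes lower at 2-d (median -0.24) to 17 of 17 higher at 4-wk (median 0.36). Of the 17, 13 had an unadjusted p under 0.05 for the difference between durations, against 1.52% of all genes. That count was taken with A09 in the fit. A09 had the highest mean level of this list at 2-d, 10.79, against 9.20 to 10.16 in the other L-P/C-HF animals. Without A09 the 2-d median was -0.17 and 15 of 17 still lay lower. At an unadjusted p under 0.05, 5 genes then lay lower in place of 7, with 1 higher either way. At 4-wk, carbohydrate genes had a median of -0.0533 and endoplasmic reticulum genes of -0.0967, 31 of 32 lower, and Ero1b was at -0.37 (p = 0.00052).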

How the data were processed

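Liver RNA of 48 mice was hybridised to an Affymetrix GeneChip of the mouse genome, 1 array per mouse, 12 mice in each group of diet and duration, and replicates are separate mice. The deposited log2 values are, per the submitters' processing notes, the authors' RMA output (background correction, normalization between arrays, summary per probe set), with 2 decimals; the log base was read from their range. Such arrays give no counts, and the number of mice limits the precision.

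B25 was left out as in the methods, so 47 arrays entered 1 fit of the 4 groups by limma 3.58.1 in R 4.3.3 (lmFit, eBayes with a trend), with Benjamini-Hochberg adjustment over 45037 probe sets, or over 18193 genes by the brightest probe set with 1 symbol (34945 have 1 symbol, 932 several, 9160 none). The study used one-way ANOVA with Global Error Assessment at an unadjusted 0.001; approximations were alternatives. Symbols are those of the platform annotation. The 49 gene lists matched 1007 genes, and 90 memberships were not analysed here. Genes could be named if past the adjusted threshold or an unadjusted 0.001, among the 15 largest differences each way at p under 0.01, among the up to 6 smallest p of a list or 2 of a role, or named by the study for 2-d; other list members given for contrast were chosen after their values were seen. The members and lists were chosen with earlier results of these data known. On simulated data of 45037 probe sets at 2-d, 89% of shifts of 0.5 and 100% of shifts of 1 were recovered, with 8 of 197 calls false. The simulated noise was normal and independent between probe sets, with no outlying array such as A09. These rates therefore check the fit and may not hold for the real arrays.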

Additional observations from a re-analysis of the deposited data

How the results depend on the processing

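The number of probe sets that changed was 6, and it was 23 with cyclic loess, 12 over the probe sets brighter than the median, 302 with ANOVA and a pooled error, 0 with ordinary one-way ANOVA (31 at an unadjusted p under 0.001) and 1 with the replicate number as a block. The 58 probe sets at an unadjusted p under 0.001 became 94 with array weights, 134 with cyclic loess, 31 with ordinary one-way ANOVA and 412 with the pooled error. The 8 genes that changed became 29 with cyclic loess, 168 with the pooled error, 4 with array weights, 2 with ordinary one-way ANOVA, 0 with all of a gene's probe sets averaged, 5 with the replicate block, and 3 each with A01, A09 and A24 left out, with A09 alone left out, with each array centred on its median, with the 2-d arrays alone and with eBayes without a trend. The cause of these changes was not tested. With cyclic loess, the brighter probe sets, the RNA quality covariate and the pooled error all 8 genes passed, with the 2-d arrays alone 1 of them did, and with ordinary one-way ANOVA 0 did, so its 2 calls are other genes. Of the share of calls at p under 0.001, 37 of 58 were higher, against 26 of 49 with median centring.

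Replicate numbers do not pair the mice by any label. Deviations of same-numbered mice correlated at -0.153 to 0.567 in 11 pairs, 7 of them above 0.1, and 3 of 11 H-P/C-HF mice correlated best with their own number. The diet effect differed between durations for 0 probe sets under every alternative run, the block included (733 at an unadjusted p under 0.05 in limma).

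All 146 genes followed kept their direction under the alternatives run (2035 values). Those alternatives reuse the same arrays, so this is no independent check of direction. Of the alternative values of these genes, 54 lost and 83 gained the adjusted threshold. The medians of 17 of 49 lists took the opposite sign under 1 or more alternatives, none of them beyond 0.0660 from 0 as reported, acute phase proteins among them. Of the 49, that of cholangiocytes moved by more than the spread between mice, to 0.0710 over the brighter probe sets. A difference of about 0.15 on the log2 scale is close to 2 standard errors here. Lists of smaller differences are only described by their counts. The members of a list were measured in the same mice, so these counts are not independent evidence.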
